A study of Mus musculus with 14 samples.

Results

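Chemokines are small secreted proteins that steer migrating leukocytes, and chemokine receptors are the membrane proteins that sense them. All protein-coding genes with a chemokine or chemokine receptor symbol (Ccl, Cxcl, Xcl and Cx3cl for ligands, Ccr, Cxcr, Xcr and Cx3cr for receptors, Ackr for atypical receptors) were taken as members, with no regard to their values. The liver table held 67 of them among 54532 genes, of which 22046 were protein-coding, and the table of pancreatic stellate cells (PSCs) held 32 among 16481. Together there were 68, of which 31 stood in both tables. They comprised 30 CC ligands, 13 CXC ligands, 2 ligands of the CX3C and XC type, 19 receptors and 4 atypical receptors. RNA-Seq was done on livers of WT mice (n = 2), TRPV4-KO mice (n = 3) and WT mice that received GSK219 (n = 3), which is GSK2193874, an antagonist of the ion channel TRPV4, gavaged daily at 10 mg/kg in cavitron. Livers were taken 20 days after injection of 100000 KPCY cells, derived from a mouse pancreatic tumor, into the tail of the pancreas. WT mice in this study carried floxed Piezo1 alleles (Piezo1 fl/fl), TRPV4-KO mice lacked Trpv4 in all host tissues while the injected tumor cells kept it, and the mice were 8 to 12 weeks old. Whether the WT mice without the drug received its carrier was not given in the sources used here. Mouse PSCs were treated with 25 μM Yoda1, an agonist of the ion channel PIEZO1, or with its solvent DMSO (n = 3 each). For each of the 3 replicate numbers, the DMSO and the Yoda1 library share a tag in their labels, and libraries with the same tag are called a preparation here, though the labels do not say what the tag stands for. The treatment lasted 24 h by the Methods and 72 h by a supplementary legend.

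Chemokines fall into families named for the spacing of the cysteines near their start, and most signal through a receptor coupled to a G protein, so that a cell moves toward the source of its ligand. Neutrophils read CXCL1, CXCL2, CXCL3 and CXCL5 through CXCR2, monocytes read CCL2 and CCL7 through CCR2, eosinophils read CCL24 through CCR3, and activated T cells and NK cells read CXCL9, CXCL10 and CXCL11 through CXCR3. In liver, such signals draw neutrophils and monocytes into the tissue, and stellate cells and fibroblasts are themselves a source of chemokines.

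Many chemokine genes lie in clusters, and the 250 bases before their transcription starts, from RefSeq (GRCm38.p6), were searched on both strands for short motifs of inflammatory regulators. The RefSeq table matched 46 of 62 distinct member symbols, in 53 windows. The NF-kB type was searched as GGG, any 3 bases and TTCC, and stood in 9 of the 53 member windows (17.0%) and in 4.65% of all 32851 windows. The interferon-response type, GAAA, any 2 bases and GAAA, stood in 3 of 53 (5.66%) and in 2.98% of all windows. The AP-1 type, TGANTCA, stood in 6 of 53 (11.3%) and in 6.75% of all. A match is a run of letters and does not show that a protein binds there. The ligands shown were chosen by hand. Ccl5 and Cx3cl1, which passed the threshold in PSCs below, are left out, and Cxcl9 and Ccl9, which passed none, are included. Their stretches from 220 to 6 bases before the start are given in the direction of the gene, with matches of the first 2 motifs in capitals. They are chr5:90891025-90891239 on the plus strand for Cxcl1, chr5:90785881-90786095 on the plus strand for Cxcl3, chr5:92348895-92349109 on the minus strand for Cxcl10, chr5:92328085-92328299 on the minus strand for Cxcl9, chr8:94810233-94810447 on the plus strand for Ccl17, chr11:83593093-83593307 on the minus strand for Ccl6 and chr11:83578642-83578856 on the minus strand for Ccl9.
Cxcl1: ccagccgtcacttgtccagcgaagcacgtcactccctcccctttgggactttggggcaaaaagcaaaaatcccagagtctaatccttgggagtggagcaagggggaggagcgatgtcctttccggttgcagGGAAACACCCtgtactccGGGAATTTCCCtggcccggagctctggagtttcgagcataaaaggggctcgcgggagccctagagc
Cxcl3: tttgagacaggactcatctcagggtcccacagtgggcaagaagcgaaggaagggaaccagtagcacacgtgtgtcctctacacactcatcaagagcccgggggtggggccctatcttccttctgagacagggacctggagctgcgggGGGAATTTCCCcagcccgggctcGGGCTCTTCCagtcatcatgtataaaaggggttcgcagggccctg
Cxcl10: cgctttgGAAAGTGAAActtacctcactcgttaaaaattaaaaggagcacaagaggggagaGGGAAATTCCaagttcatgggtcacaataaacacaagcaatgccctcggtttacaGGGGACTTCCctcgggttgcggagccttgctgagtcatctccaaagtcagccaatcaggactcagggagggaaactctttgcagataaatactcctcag
Cxcl9: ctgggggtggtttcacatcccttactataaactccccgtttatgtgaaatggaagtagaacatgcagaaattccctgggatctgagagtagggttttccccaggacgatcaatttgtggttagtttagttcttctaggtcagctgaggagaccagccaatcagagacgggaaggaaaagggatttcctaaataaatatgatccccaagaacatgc
Ccl17: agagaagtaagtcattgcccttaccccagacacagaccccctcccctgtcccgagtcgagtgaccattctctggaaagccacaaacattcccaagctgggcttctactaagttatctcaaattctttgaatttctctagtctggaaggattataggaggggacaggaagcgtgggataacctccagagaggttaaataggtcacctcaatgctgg
Ccl6: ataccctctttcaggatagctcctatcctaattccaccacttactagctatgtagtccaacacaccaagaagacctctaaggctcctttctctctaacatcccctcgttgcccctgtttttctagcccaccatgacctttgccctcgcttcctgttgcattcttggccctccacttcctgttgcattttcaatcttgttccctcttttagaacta
Ccl9: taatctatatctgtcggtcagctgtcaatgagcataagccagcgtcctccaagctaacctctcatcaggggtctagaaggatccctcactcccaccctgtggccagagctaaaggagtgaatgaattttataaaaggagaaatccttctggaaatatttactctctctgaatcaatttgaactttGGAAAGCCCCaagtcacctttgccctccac
Cxcl1 and Cxcl3, ligands of CXCR2, each had 3 matches of the NF-kB type, of which 2 overlap on opposite strands in 1 run of capitals. Cxcl10 had 2 of that type and 1 of the interferon-response type, and these letters were not found before its neighbor Cxcl9. Ccl9 had 1 match of the NF-kB type, which began 35 bases before its start, and none was found before Ccl6, which lies next to it, or before Ccl17.

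The authors deposited raw read counts for the livers and, for the PSCs, gene counts divided by 1 size factor per library. Totals were 15567031 to 17395299 counts per liver and 27312894 to 39070539 recovered reads per PSC library, and in each preparation the DMSO library was the shallower. Trpv4 had 43 and 53 counts in the WT livers, 15, 5 and 23 in the TRPV4-KO livers and 20, 30 and 36 in the GSK219 livers, so the knocked-out gene was not at 0. These are counts over the whole gene, and whether they cover the deleted part was not checked. Its log2 fold change for WT over TRPV4-KO was 1.71 (SE 0.50, adjusted p = 0.16 by edgeR). Piezo1 had 382 and 330 counts in WT, 174 to 304 in TRPV4-KO and 159 to 275 in GSK219 livers (log2 fold changes of 0.67, adjusted p = 0.25, and 0.66, adjusted p = 0.57). By their Xist reads, each liver group held 1 female. All 6 hepatocyte markers were present in every liver. Col1a1, Col1a2, Acta2 and Vim were high in the PSCs, while Lrat and Gfap, which mark quiescent stellate cells, are not in the PSC table. The 6 epithelial markers, chiefly Krt8 and Krt18, summed to 52877 to 118720 units in the PSC libraries.

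Liver levels are given as CPM, counts scaled by TMM library sizes, and a member was called when edgeR's adjusted p was under 0.05 and its log2 fold change was over 1 in either direction. Of the 67 members in the liver table, 32 passed the filter on low counts and were tested. A few ligands dominated. Per kilobase of gene length, Cxcl1, Cxcl12, Ccl6, Cxcl14 and Ccl9 had the highest CPM in WT livers, at 50.01, 45.97, 43.96, 16.9 and 13.3. In TRPV4-KO livers the order was Cxcl12, Ccl9, Cxcl1, Ccl6 and Cxcl9, at 63.1, 19.4, 15.01, 6.99 and 4.96 CPM per kilobase. Cxcl12 made up 44.6% of the members' sum there, against 20.4% in WT. In GSK219 livers the order was Cxcl12, Ccl9, Cxcl1, Ccl6 and Cxcl14, at 49.8, 16.4, 15.8, 11.7 and 6.06 CPM per kilobase.

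Of the 35 members under the filter, 10 had no count in any of the 8 livers. These were Ccl1, Ccl19 and its copy on the scaffold JH584294.1, Ccl26, Ccl21b and its copy on GL456350.1, both copies of Ccl21c, the copy of Ccl27a on JH584294.1, and Cxcl15. The other 25 had at most 20 counts in any liver, namely Ccl3, Ccl4, Ccl8, Ccl11, Ccl12, Ccl17, Ccl20, Ccl21a and its copy on JH584294.1, Ccl22, Ccl27b, the copy of Ccl27a on JH584293.1, Ccl28, Cxcl2, Cxcl3, Cxcl5, Cxcl17, Xcl1, Ccr1l1, Ccr4, Ccr6, Ccr8, Ccr10, Cxcr1 and Cxcr5. Reads of the near-identical copies of Ccl19, Ccl21 and Ccl27 may have been split or dropped in counting, so their levels are uncertain.

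WT livers were compared with TRPV4-KO livers to see which members depended on host TRPV4 when pancreatic tumor cells were present. Receptors of neutrophils, monocytes and macrophages and several ligands had higher values in both WT livers than in all 3 TRPV4-KO livers, but by edgeR Cxcr2 alone passed the threshold. Thus 1 member of 32 was called higher in WT, where 0.152% of the 15118 genes tested were, and 0 were called lower, where 0.112% were. At an unadjusted p under 0.05, 14 members were higher and 1 was lower, with 9.5% and 7.61% of all genes in these directions. WT and TRPV4-KO livers did not overlap in 17 members, 16 of them higher in WT (17.7% of all genes) and 1 lower (15.5% of all genes). The median log2 fold change was 0.89 over the 32 members and -0.01 over all genes tested, and 26 members were positive. The members' median depended on the WT livers. It was 0.27 without WT replicate 1, with 19 of 33 tested positive, and 1.13 without WT replicate 2, with 34 of 38. Since the filter can be passed through the group in which a gene is high, as it was by Cxcr2, these counts and medians describe the members tested and not all 67.

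Cxcr2, the receptor of neutrophils for CXCL1 and its relatives (ENSMUSG00000026180, chromosome 1 from 74153989 to 74161246 of GRCm38), was at 2.17 and 2.16 CPM in the WT livers and at 0.253, 0.259 and 0.116 CPM in the TRPV4-KO livers, from 35 and 37 against 4, 4 and 2 counts. Both WT livers lay far above the highest TRPV4-KO liver. Its level was 10.1-fold higher in WT (log2 fold change 3.33, SE 0.43, edgeR adjusted p = 0.028). The call rests on few counts, and Cxcr2 passed the filter only through the WT livers, in which it is high. With 1 liver left out in turn it was kept without TRPV4-KO replicate 3 or GSK219 replicate 3 and lost without any 1 of the other 6, with an adjusted p of 0.018 to 0.28 and a log2 fold change of 3.04 to 3.51. Cxcr1, the other receptor of this kind, had 4 and 2 counts in WT and 0, 1 and 0 in TRPV4-KO livers.

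Among the ligands of CXCR2, Cxcl1 alone was abundant in liver. It was at 109.7 and 77.9 CPM in WT and at 21.4, 22.5 and 40.5 CPM in TRPV4-KO livers (log2 fold change 1.73, SE 0.31, edgeR adjusted p = 0.077), so that the groups did not overlap but the threshold was missed. Cxcl2 had 13 and 10 counts in WT and 7, 4 and 4 in TRPV4-KO livers. Cxcl3 had 3 and 3 against 0, 0 and 0, and Cxcl5 had 7 and 0 against 1, 1 and 1.

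The receptors of monocytes and macrophages lay on the same side. Ccr1, a receptor for CCL3, CCL5, CCL6 and CCL9, was at 5.07 and 1.52 CPM in WT and at 0.506, 0.259 and 0.405 CPM in TRPV4-KO livers (log2 fold change 3.05, SE 0.59, adjusted p = 0.089). Here the WT livers themselves differed widely. Ccr2 was at 10.8 and 8.57 against 2.72, 2.27 and 6.72 CPM (log2 fold change 1.30, SE 0.55, adjusted p = 0.28), and Cx3cr1, the receptor of the membrane-bound chemokine CX3CL1, at 3.22 and 3.73 against 1.52, 0.907 and 2.08 CPM (log2 fold change 1.20, SE 0.43, adjusted p = 0.22). In none of these 3 receptors did the groups overlap, and none passed the adjusted threshold. Ccr3, a receptor of eosinophils, was at 1.67 and 3.50 CPM in WT and at 0.379, 0.389 and 0.174 CPM in TRPV4-KO livers (log2 fold change 3.02, SE 0.62, adjusted p = 0.099). Ccl24, its ligand, was at 8.29 and 7.34 against 3.73, 3.37 and 4.52 CPM (log2 fold change 1.01, SE 0.24, adjusted p = 0.12). For both receptor and ligand the WT livers lay above all TRPV4-KO livers, short of the threshold.

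Ccl6 and Ccl9 are neighbors on chromosome 11 and both are ligands of CCR1 made by myeloid cells, and their log2 fold changes in liver had opposite signs. Ccl6 (ENSMUSG00000018927, 83587882 to 83593087) was at 102 and 55.3 CPM in WT and at 10.6, 9.26 and 17.8 CPM in TRPV4-KO livers (log2 fold change 2.65, SE 0.45, edgeR adjusted p = 0.077), with no overlap. Ccl9 (83572919 to 83578636) was at 52.1 and 28.7 CPM in WT and at 41.5, 42.5 and 93.1 CPM in TRPV4-KO livers (log2 fold change -0.55, SE 0.40, adjusted p = 0.54), where the groups overlapped. Ccl5, an attractant of T cells and monocytes, overlapped as well, at 1.73 and 0.816 against 1.64, 0.907 and 1.68 CPM.

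Cxcl14, an epithelial and stromal chemokine, was at 20.5 and 41.3 CPM in WT and at 5.12, 6.87 and 2.84 CPM in TRPV4-KO livers (log2 fold change 2.65, SE 0.72, edgeR adjusted p = 0.16). Cx3cl1 was at 3.34 and 2.68 against 1.01, 0.713 and 1.10 CPM (log2 fold change 1.67, SE 0.47, adjusted p = 0.16). Neither overlapped between groups. Cxcl12, the ligand of CXCR4 and the member with the highest CPM, was the one member with both WT livers below all TRPV4-KO livers, at 367 and 385 against 458, 612 and 479 CPM (log2 fold change -0.46, SE 0.17, adjusted p = 0.22). Its receptor Cxcr4 overlapped, at 2.23 and 0.699 against 0.822, 0.972 and 2.20 CPM. The atypical receptors bind chemokines without the usual signaling and can remove them. Their log2 fold changes were 1.85 for Ackr3, 1.12 for Ackr1, 1.06 for Ackr2 and 0.59 for Ackr4, with adjusted p of 0.19, 0.36, 0.12 and 0.60 by edgeR.

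Cxcl9, Cxcl10 and most lymphocyte receptors tested overlapped between the groups. Cxcl10 (ENSMUSG00000034855, chromosome 5 from 92346638 to 92348889), a ligand of CXCR3 that interferon induces, was at 5.20 and 2.39 CPM in WT and at 2.15, 2.72 and 5.38 CPM in TRPV4-KO livers (log2 fold change 0.14, SE 0.49, edgeR adjusted p = 0.92). The groups overlapped, and the log2 fold change turned to -0.50 without WT replicate 1, to -0.10 without TRPV4-KO replicate 1 and to -0.01 with a term for sex. Cxcl9, which lies beside it, was at 24.7 and 4.84 against 9.36, 6.74 and 28.8 CPM. In both genes the highest value of each liver group was that of its female. The receptors Cxcr3, Cxcr4, Cxcr6, Ccr7 and Xcr1 had log2 fold changes between -0.19 and 0.21, and their groups overlapped. Ccr9, the other lymphocyte receptor tested, did not overlap, at 0.742 and 1.17 against 0.379, 0.648 and 0.347 CPM (log2 fold change 1.05, SE 0.54, adjusted p = 0.36).

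**Figure D1:**
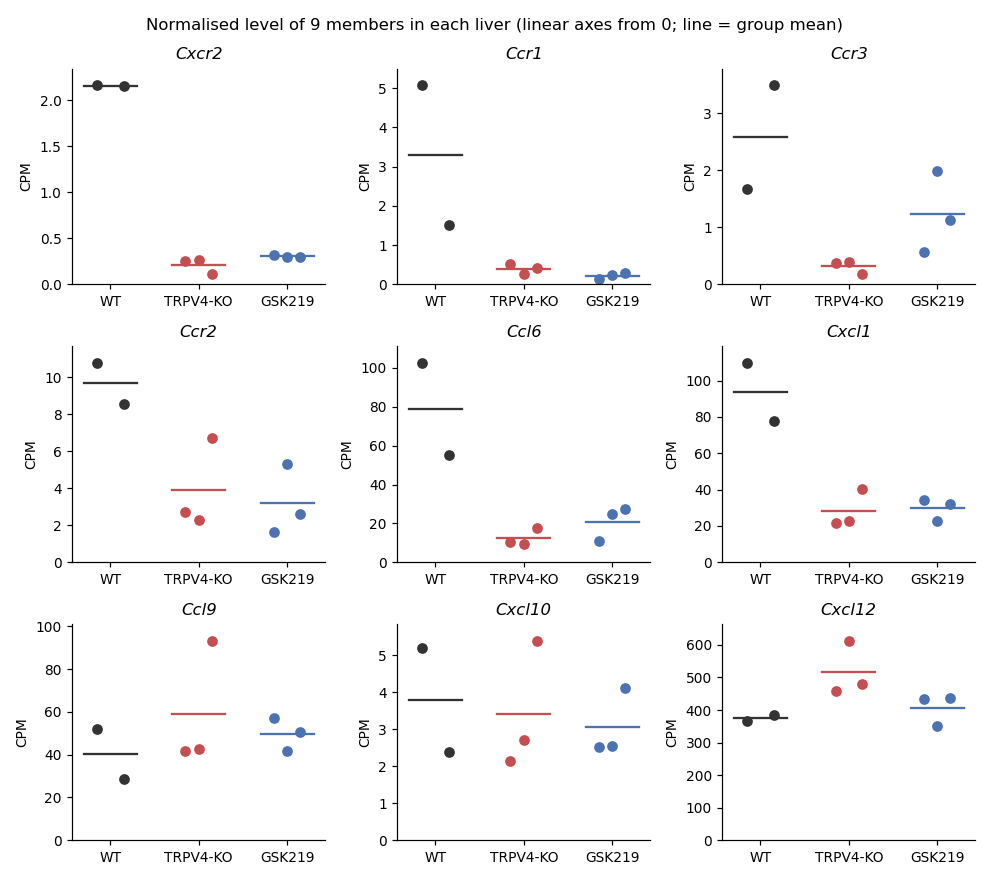
Level in CPM (linear axes from 0) of 9 members in each liver, with 1 point per liver and a line at the group mean, for WT (n = 2), TRPV4-KO (n = 3) and GSK219 (n = 3). Cxcr2, Ccr1, Ccr2, Ccl6 and Cxcl1 are higher in both WT livers than in all other livers, Ccl9 and Cxcl10 overlap between groups, and Cxcl12 is lower in both WT livers than in all TRPV4-KO livers.

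Other fits of the same counts called from 0 to 10 members higher in WT than in TRPV4-KO. With only these 2 groups in the edgeR fit 0 members were called (0.0745% of all genes), and Cxcr2 was lost at an adjusted p of 0.12, while DESeq2's size factors in edgeR called 1 member (0.165%). DESeq2 called 10 members (2.43% of all genes), among them Cxcr2, Ackr2, Ccl24, Ccl6, Ccr1, Ccr3, Cx3cl1, Cxcl1 and Cxcl14. A model with the replicate number called 8 (2.32% of all genes) and a model with a term for sex 7 (1.67%). The test with no filter on low counts called 4 (0.37%), among them Ccr1, Ccr3 and Cxcr2. Without TRPV4-KO replicate 3, which held the highest Ccl6, Ccl9, Cxcl1 and Ccr2 of its group, 7 were called (3.83%).

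WT livers were next compared with GSK219 livers, which addresses TRPV4 by a drug in place of a deletion. Both comparisons share the 2 WT livers, so what is high in those mice enters each, and each is given by its own values. By edgeR 0 of the 32 members were called higher or lower, and so were 0% of all genes in either direction. At an unadjusted p under 0.05, 11 members were higher in WT, where 5.87% of all genes were, and 0 were lower, where 2.34% were. DESeq2 called 5 members higher (0.408% of all genes), among them Ccl6, Ccr1, Cxcl1 and Cxcr2. With no filter on low counts edgeR called Ccr1 (0.0259% of all genes). In 15 members both WT livers were above all GSK219 livers (15.6% of all genes), and in 0 members both were below (11.7% of all genes). The median log2 fold change was 0.93 over the 32 members and -0.00149 over all genes tested. The members' median was 0.29 without WT replicate 1, with 19 of 33 tested positive, and 1.08 without WT replicate 2, with 36 of 38.

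Ccr1 and Cxcr2 had the highest log2 fold changes here, and both passed the filter only through the WT livers. Ccr1 was at 0.126, 0.242 and 0.299 CPM in GSK219 livers (log2 fold change 3.84, SE 0.62, edgeR adjusted p = 0.28), and Cxcr2 at 0.315, 0.302 and 0.299 CPM, from 5 counts in each (log2 fold change 2.79, SE 0.41, adjusted p = 0.22). Both receptors were lower in every GSK219 liver than in either WT liver, and the log2 fold change of Ccr1 was 2.72 without WT replicate 1. Ackr3, a scavenger of CXCL12, was at 4.45 and 1.81 CPM in WT and at 0.315, 0.664 and 0.777 CPM in GSK219 livers (log2 fold change 2.40, SE 0.62, adjusted p = 0.45). Ccl6 was at 10.9, 24.6 and 27.3 CPM with GSK219 (log2 fold change 1.91, SE 0.45, adjusted p = 0.43) and Cxcl1 at 34.04, 22.6 and 32.2 CPM (log2 fold change 1.66, SE 0.31, adjusted p = 0.35). Neither ligand overlapped with WT. Cx3cr1 was at 0.818, 1.51 and 0.717 CPM (log2 fold change 1.77, SE 0.44, adjusted p = 0.43) and Ccr2 at 1.64, 5.32 and 2.63 CPM (log2 fold change 1.59, SE 0.56, adjusted p = 0.54). Both receptors were below both WT livers in every GSK219 liver, again short of the threshold.

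Ccr3 overlapped between WT and GSK219 livers, with 0.566, 1.99 and 1.14 CPM in the latter (log2 fold change 1.06, SE 0.56, edgeR adjusted p = 0.68). Cxcl10 was at 2.52, 2.54 and 4.12 CPM with GSK219 (log2 fold change 0.31, SE 0.49, adjusted p = 0.94) and Cxcl12 at 433, 351 and 437 CPM (log2 fold change -0.11, SE 0.16, adjusted p = 0.93), so both overlapped with WT. The log2 fold change of Cxcl10 turned to -0.36 without WT replicate 1. Ccl9 overlapped as well, at 57.2, 41.8 and 50.6 CPM (log2 fold change -0.30, SE 0.40, adjusted p = 0.92). Among the lymphocyte receptors, Ccr9 (log2 fold change 0.96, SE 0.53, adjusted p = 0.7) and Ccr7 (log2 fold change 1.46, SE 0.78, adjusted p = 0.69) were below both WT livers in every GSK219 liver and missed the threshold.

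**Figure D2:**
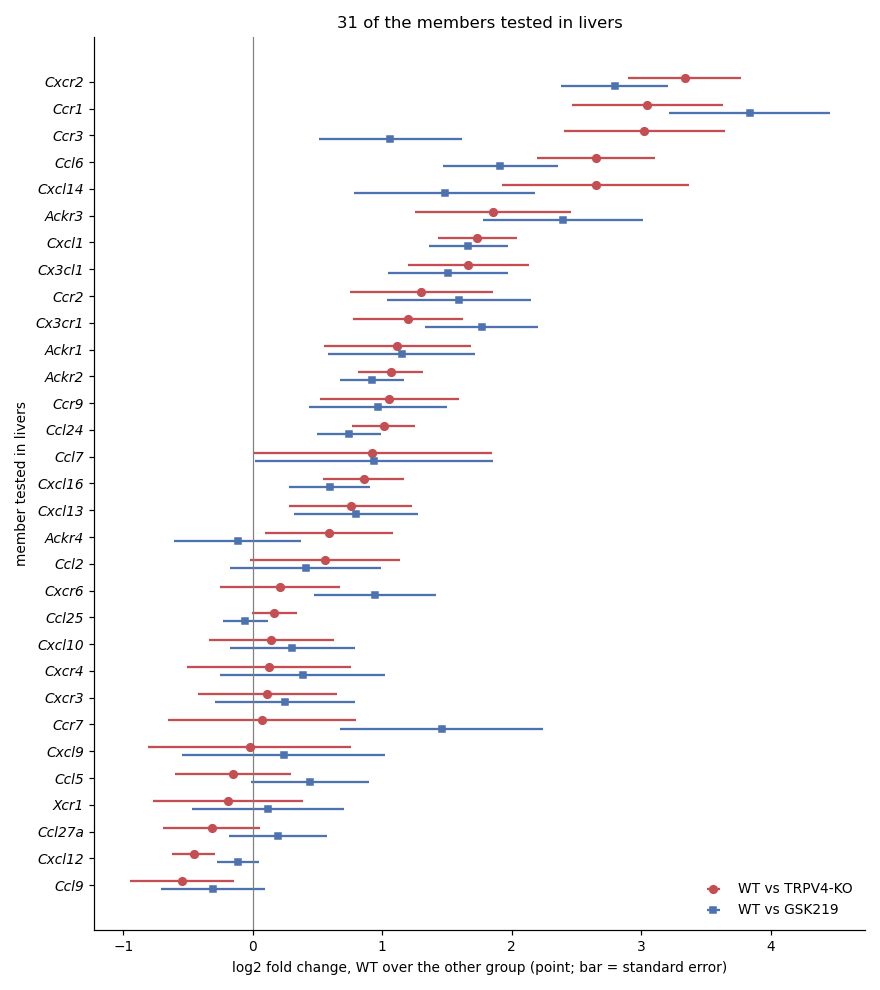
Log2 fold change (x axis) of 31 of the 32 members tested in livers, 1 per row, for WT over TRPV4-KO and WT over GSK219, with bars of 1 standard error. Both use the same 2 WT livers; Cxcr2 has 3.33 and 2.79, Ccr1 3.05 and 3.84, and Ccl9 -0.55 and -0.30.

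TRPV4-KO and GSK219 livers were also compared directly. By edgeR 0 of 32 members differed, where 0.0992% of all genes did, and at an unadjusted p under 0.05 there were 2, where 6.12% of all genes were. DESeq2 called 0 members as well. The 2 members were Ccr3, at 0.379, 0.389 and 0.174 CPM in TRPV4-KO and 0.566, 1.99 and 1.14 CPM in GSK219 livers (log2 fold change -1.96, SE 0.60, adjusted p = 0.59), and Cxcl12 (log2 fold change 0.34, SE 0.15, adjusted p = 0.81). In both, the groups did not overlap.

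Markers of neutrophils, macrophages and monocytes had higher sums in both WT livers than in all other livers. In bulk tissue, fewer cells of a type and less RNA per cell cannot be told apart. Of 14 neutrophil markers, 13 were tested, and all 13 were higher in WT at an unadjusted p under 0.05 in each comparison. Of all genes, 9.5% were so against TRPV4-KO and 5.87% against GSK219. Like Cxcr2, a marker could pass the filter through the WT livers alone, so these counts describe the markers tested. S100a8 and Cd177 were called in WT against TRPV4-KO. With the replicate number in the model, 10 were called against TRPV4-KO, where 2.32% of all genes were. Against GSK219 that model called 3, S100a8, S100a9 and Mpo, of 9 genes called in all. S100a8 was at 14.8 ± 1.67 CPM (SD, n = 2) in WT, 1.15 ± 0.806 (SD, n = 3) in TRPV4-KO and 1.05 ± 0.160 (SD, n = 3) in GSK219 livers, with log2 fold changes of 3.67 and 3.80 and adjusted p of 0.028 and 0.17 by edgeR. The summed level of the list, most of it Lcn2, ran from 429.8 to 1223 CPM in WT, from 40.8 to 275 in TRPV4-KO and from 57.6 to 187 in GSK219 livers. No marker of this list was at 0 in all livers. The part of these cells in the levels of Cxcr2, Ccr1 and Ccl6 was not tested.

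All 8 Kupffer cell and macrophage markers had positive log2 fold changes in each comparison, with medians of 1.31 and 1.09 and sums of 1411 to 1576 CPM in WT, 376 to 851 in TRPV4-KO and 403 to 969 in GSK219 livers. None was called by edgeR, and 7 and 6 had an unadjusted p under 0.05, where 9.5% and 5.87% of all genes were higher. With the replicate number in the model, 6 were called against TRPV4-KO and 0 against GSK219. The 6 monocyte markers, among them the member Ccr2, had medians of 1.45 and 1.57 and sums of 35.3 to 47.6 CPM in WT, 8.49 to 30.1 in TRPV4-KO and 11.3 to 20.5 in GSK219 livers, and F13a1 was called against TRPV4-KO. Stellate cell and fibroblast markers summed to 404 to 607 CPM in WT, 151 to 336 in TRPV4-KO and 194 to 308 in GSK219 livers. Hepatocyte markers, most of their sum being Alb, had lower sums in WT, at 55043 to 70371 CPM against 75875 to 96926 and 78311 to 86156. Alb had log2 fold changes of -0.81 and -0.61, but Fgb 0.84 and 0.47 and Apoa1 0.24 and 0.11, and the list's medians were -0.13 and -0.12, with 2 of 6 positive in each comparison. Platelet markers summed to 10.7 to 13.7 CPM in WT, 4.73 to 9.55 in TRPV4-KO and 5.98 to 8.01 in GSK219 livers, with Gp1bb at 0. The sums of the other lists overlapped between WT and at least 1 of the other groups. In WT and TRPV4-KO they were 4.14 to 8.04 and 2.66 to 5.67 CPM for T cells, 1.57 to 3.22 and 0.972 to 3.47 for NK cells, 5.48 to 9.22 and 6.70 to 20.8 for B cells, 20.9 to 35.1 and 12.8 to 24.4 for dendritic cells, 428 to 471 and 271 to 420.1 for endothelium, 619 to 678 and 406 to 657 for epithelium and 6.62 to 15.5 and 9.09 to 19.05 for acinar cells, where Amy2a5 and Ptf1a were at 0. No gene of the lists from stellate cells to acinar cells was called by edgeR. With the replicate number in the model, Dcn, Cdh5 and Sox9, of the stellate cell, endothelial and epithelial lists, were called higher in WT than in TRPV4-KO. The same model called 10 neutrophil, 6 macrophage and 3 monocyte markers higher there, and 2.32% of all genes. T, NK and dendritic cell markers had 0 genes at an unadjusted p under 0.05 in either comparison, and of 5 B cell markers 1 was positive against TRPV4-KO, with a median log2 fold change of -1.705 and 1 lower at that level. Their part in the members' levels was not tested.

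Other genes of the chemokine system were read from lists. Of 34 genes for signaling below chemokine receptors, 33 were tested and 31 had positive log2 fold changes in each comparison of WT livers. By edgeR 0 were called in either, and the medians were 0.65 and 0.57. At an unadjusted p under 0.05, 18 were higher and 1 lower against TRPV4-KO, where 9.5% and 7.61% of all genes were. Against GSK219 there were 16 and 0, where 5.87% and 2.34% of all genes were. Ncf1, a subunit of the phagocyte oxidase, was at 19.4 ± 2.77 CPM in the 2 WT livers and 7.37 ± 2.78 in the 3 TRPV4-KO livers, as mean and SD (log2 fold change 1.39), and Rgs1, which dampens G protein signaling, had a log2 fold change of 2.34. Of 12 receptors for other leukocyte chemoattractants, 10 were tested and 0 were called, with 4 higher at an unadjusted p under 0.05 in each comparison. The complement receptors C3ar1 and C5ar1 had log2 fold changes of 1.73 and 1.55 over TRPV4-KO. Among 11 chemokine system genes outside the symbol rule, 9 were tested and 0 were called, with 1 higher and 2 lower at an unadjusted p under 0.05 against TRPV4-KO. Cmklr1, the chemerin receptor, had a log2 fold change of 1.36, and Mif, a cytokine that binds CXCR2 and CXCR4, one of -0.83. Of 23 regulators of chemokine genes 0 were called and 3 were higher at an unadjusted p under 0.05 against TRPV4-KO, with Nfkbiz, a partner of NF-kB, at a log2 fold change of 1.05. The 20 interferon-response genes had medians of 0.23 against TRPV4-KO and 0.34 against GSK219, with 0 called and with 4 higher and 1 lower at an unadjusted p under 0.05 against TRPV4-KO. With the replicate number in the model, 6 signaling genes and 2 receptors for other chemoattractants were called higher in WT than in TRPV4-KO. So were 1 gene outside the symbol rule, 1 regulator and 1 interferon-response gene.

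In PSCs, the question was which members a PIEZO1 agonist shifts in the cells themselves. Values are gene counts divided by the library's size factor, and log2 fold changes are on the log2(value + 1) scale, which understates the change of low genes. Per kilobase, Ccl2, Ccl7, Cxcl14, Cxcl12 and Cxcl16 were the highest members with DMSO, at 1817, 1179, 983, 941 and 629.6 units. With Yoda1 the order was Cxcl14, Ccl6, Ccl2, Cxcl12 and Ccl7, at 1240.2, 1042, 795, 747 and 714 units per kilobase. A filter left 28 members, each of which reached 10 units in 3 or more libraries. Under this limit were Ccl11, Ccl12, Cxcl9 and Cxcl11, with at most 15 recovered reads in any library.

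Ligands moved in both directions with Yoda1. By limma 1 member, Ccl5, was called higher, where 0.733% of the 15145 genes tested were, and 3 members, Ccl17, Cxcl10 and Cx3cl1, were called lower, where 0.786% were. With the preparation in the model 4 members were higher (1.66% of all genes) and 5 lower (1.32% of all genes), which adds Cxcl3, Ccl24 and Ccl6 to the first and Cxcr6 and Ccl2 to the second. DESeq2 on the recovered reads called 3 higher (1.35%) and 5 lower (1.15%), while edgeR on the same reads called 1 higher (0.723%) and 2 lower (0.749%). The call of Cxcl10 was lost there, at an adjusted p of 0.051, and by limma without a trended and robust spread, an alternative chosen after seeing the data, at an adjusted p of 0.075 and with Ccl5 no longer called (0.469% of all genes higher and 0.541% lower). At an unadjusted p under 0.05, 5 members were higher and 7 lower by limma, with 11.2% and 11.5% of all genes in these directions. In 5 members all 3 Yoda1 libraries were above all DMSO libraries (14.9% of all genes), and in 7 they were below (15.1%). The median log2 fold change was 0.27 over the members and -0.01 over all genes tested, and 16 of 28 were positive. With 1 library left out, the members' median ran from 0.04 without Yoda1 replicate 3, with 13 of 25 tested positive, to 0.37 without DMSO replicate 2. The 4 members under the filter had lower means with Yoda1, and with no filter the median over 32 members was 0.085, 16 were positive and 10 were lower at an unadjusted p under 0.05. Ccl17 reached the filter's limit in the 3 DMSO libraries alone and Cxcl3 in the 3 Yoda1 libraries alone, so each passed only through the group in which it is high, and the counts and medians here describe the members tested. With 1 library left out in turn, Ccl5 was still called without DMSO replicate 1, DMSO replicate 3 or Yoda1 replicate 3, Cxcl10 without Yoda1 replicate 3 alone, Ccl17 without Yoda1 replicate 3 (without any 1 DMSO library it fell under the filter), and Cx3cl1 without DMSO replicate 1 or Yoda1 replicate 3.

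Ccl5, a ligand of CCR1, was at 13.7, 6.73 and 3.03 units with DMSO in preparations 1 to 3 and at 60.2, 60.9 and 41.7 with Yoda1, from 11, 6 and 3 reads against 64, 74 and 52. It rose to 4.39, 9.05 and 13.8 times its DMSO level (log2 fold change 2.82, 95% interval 1.66 to 3.98, limma adjusted p = 0.030, or 0.0053 with the preparation). Cxcl3, a ligand of CXCR2, was at 3.74, 4.49 and 3.03 units with DMSO and at 15.1, 29.6 and 139 with Yoda1 (log2 fold change 3.12, 95% interval 1.29 to 4.95, adjusted p = 0.074, or 0.035 with the preparation). It was higher in all 3 preparations, by far the most in preparation 3, and was called with the preparation in the limma model and by DESeq2 on the recovered reads.

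The other CXCR2 ligands overlapped. Cxcl5 was at 42.4, 68.4 and 17.2 units with DMSO and at 46.1, 151 and 472 with Yoda1 (log2 fold change 1.99, 95% interval -0.12 to 4.09, limma adjusted p = 0.24). Cxcl1 was at 76.1, 129 and 60.6 against 50.8, 114 and 220.5 units (log2 fold change 0.36, 95% interval -0.95 to 1.68), and Cxcl2 at 4.99, 13.5 and 7.07 against 8.47, 13.99 and 31.3 (log2 fold change 0.90, 95% interval -0.41 to 2.22). In each of these 4 ligands, preparation 3 had the highest Yoda1 value and the largest ratio to its own DMSO library.

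Ccl6 and Ccl9 both had higher values with Yoda1 in all 3 preparations. Ccl6 was at 748, 854 and 1182 units with DMSO and at 1520.1, 1703 and 2389 with Yoda1, which are ratios of 2.03, 1.99 and 2.02 (log2 fold change 1.01, 95% interval 0.48 to 1.54, limma adjusted p = 0.056, or 0.0008 with the preparation). Ccl9 was at 84.8, 135 and 179.7 against 184, 208 and 429 units (log2 fold change 1.00, 95% interval 0.05 to 1.94, adjusted p = 0.20, or 0.0096 with the preparation), and its fold change stayed just under the threshold. Ccl24, an eosinophil attractant, was at 4.99, 11.2 and 14.1 against 18.8, 19.8 and 46.5 units (log2 fold change 1.38, 95% interval 0.20 to 2.57, adjusted p = 0.17, or 0.031 with the preparation). Ccl6 was called with the preparation in the limma model and by DESeq2 on the recovered reads, and Ccl24 with the preparation in the model but not by DESeq2.

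**Figure D3:**
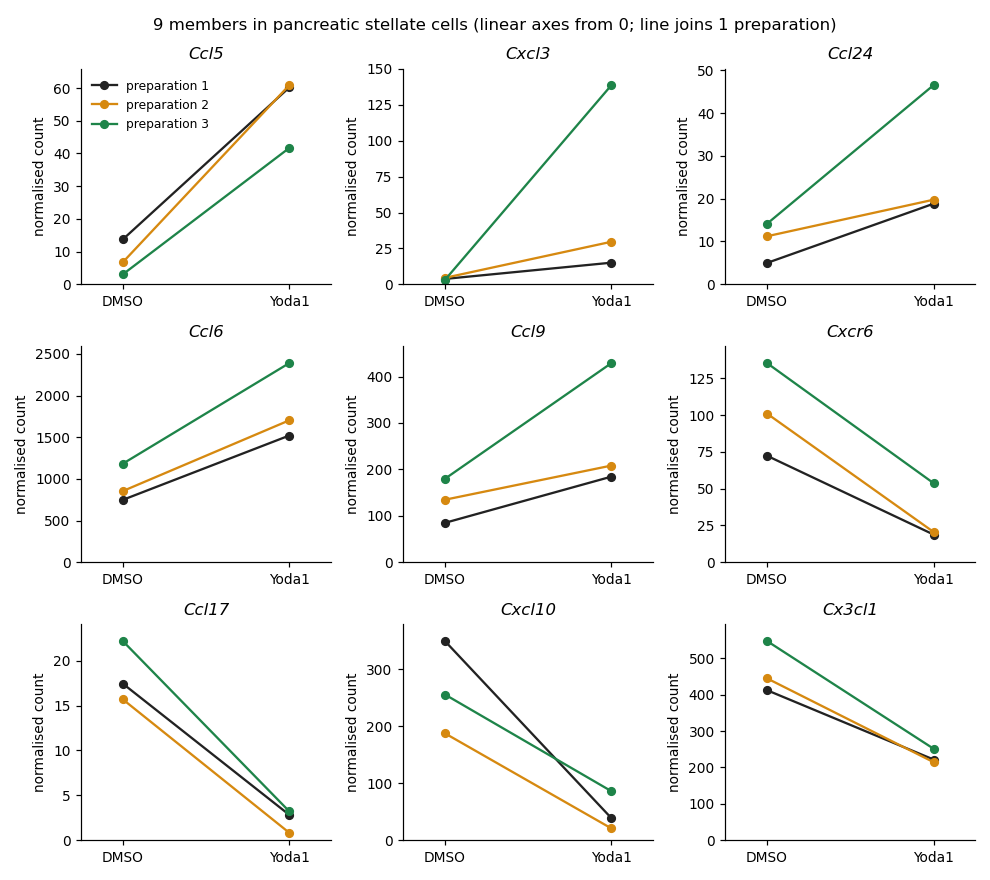
Count divided by size factor (linear axes from 0) of 9 members in PSCs with DMSO and with Yoda1, with each line joining the 2 libraries of 1 preparation (n = 3). Ccl5, Cxcl3, Ccl24, Ccl6 and Ccl9 go up in each preparation, and Cxcr6, Ccl17, Cxcl10 and Cx3cl1 go down in each.

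Cxcl10 fell from 349, 187 and 255 units with DMSO to 38.6, 20.6 and 85.8 with Yoda1, which are ratios of 0.110, 0.110 and 0.336 (log2 fold change -2.61, 95% interval -3.83 to -1.39, limma adjusted p = 0.042, or 0.011 with the preparation). The other ligands of CXCR3 were under the filter, with 10, 5 and 15 reads against 2, 0 and 2 for Cxcl11 and 2, 9 and 10 against 2, 2 and 4 for Cxcl9. Ccl17, a ligand of CCR4 on helper and regulatory T cells, fell from 17.5, 15.7 and 22.2 units to 2.82, 0.823 and 3.21, from 14, 14 and 22 reads to 3, 1 and 4 (log2 fold change -2.64, 95% interval -3.65 to -1.64, adjusted p = 0.024, or 0.0091 with the preparation). Cx3cl1, which lies near Ccl17 on chromosome 8, fell from 413, 445 and 548 units to 222, 215 and 252 (log2 fold change -1.02, 95% interval -1.34 to -0.70, adjusted p = 0.015, or 0.0024 with the preparation). In all 3 ligands each Yoda1 library was below each DMSO library. The receptor of CX3CL1, Cx3cr1, was low and overlapped, at 8.73 to 15.1 against 10.4 to 19.8 units.

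Ccl2, the main attractant of monocytes, was at 1589, 2425 and 2190.3 units with DMSO and at 567, 695 and 1453 with Yoda1 (log2 fold change -1.29, 95% interval -2.14 to -0.44, limma adjusted p = 0.096, or 0.024 with the preparation). Ccl7, which binds the same receptor, was at 722, 1012 and 1100.2 against 269, 386 and 1061 units, with ratios of 0.373, 0.381 and 0.964 in preparations 1 to 3 (log2 fold change -0.95, 95% interval -2.12 to 0.21, adjusted p = 0.30, or 0.084 with the preparation). Preparation 3 thus had the smallest drop of both. Cxcr6, the receptor of CXCL16, was at 72.3, 101 and 135 units against 18.8, 20.6 and 53.7 (log2 fold change -1.81, 95% interval -2.87 to -0.75, adjusted p = 0.074, or 0.0060 with the preparation), with no overlap. Its ligand Cxcl16 was at 1645, 1687 and 2374 against 1561, 1606 and 2466 units (log2 fold change -0.03, 95% interval -0.55 to 0.49) and overlapped. Ccl2 and Cxcr6 were called with the preparation in the limma model, by DESeq2 on the recovered reads and without Yoda1 replicate 3.

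Cxcl12 was the member with the highest values, at 8083, 7591 and 7402 units with DMSO and 6162, 5948 and 6206 with Yoda1 (log2 fold change -0.33, 95% interval -0.47 to -0.20, limma adjusted p = 0.028, or 0.0097 with the preparation). The treatments did not overlap, but the change was under the fold threshold. Ackr3, its scavenger receptor, was at 726, 667 and 359 against 712, 816 and 646 units (log2 fold change 0.37, 95% interval -0.27 to 1.01). Ccl20 was at 63.6, 40.4 and 45.4 against 27.3, 37.9 and 29.7 units (log2 fold change -0.63, 95% interval -1.21 to -0.04, adjusted p = 0.20), below in each preparation. For Ccl3, Ccl4, Ccl25, Ccl27a, Ccl28, Cxcl14, Ccr1, Cxcr4 and Cx3cr1, the log2 fold changes were between -0.83 and 0.58, and the treatments overlapped.

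**Figure D4:**
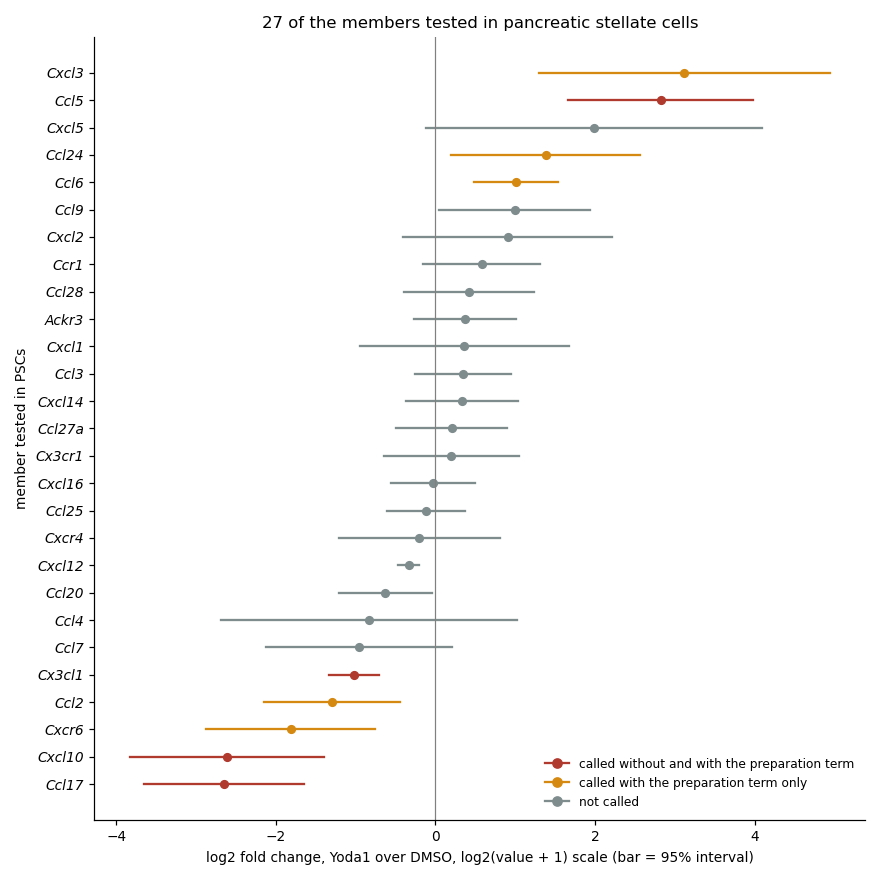
Log2 fold change of Yoda1 over DMSO (x axis, log2(value + 1) scale) with its 95% interval for 27 of the 28 members tested in PSCs, 1 per row. Ccl5, Cx3cl1, Cxcl10 and Ccl17 are called by limma with and without the preparation in the model, and Cxcl3, Ccl24, Ccl6, Ccl2 and Cxcr6 by limma with it but not without it.

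Interferon-response genes often measured with Cxcl10 were on the other side. Of 20 such genes 18 were tested, all 18 had positive log2 fold changes with Yoda1, and their median was 0.73. Oasl1 was called by limma, at 322 ± 33.98 units with DMSO against 979 ± 135 with Yoda1 (mean and SD, n = 3, log2 fold change 1.60, adjusted p = 0.0050), and Usp18 was called with the preparation in the model but not without it (log2 fold change 1.12). At an unadjusted p under 0.05, 8 were higher and 0 lower, where 11.2% and 11.5% of all genes were. Of 23 regulators of chemokine genes 0 were called by limma, and 4 were higher and 3 lower at an unadjusted p under 0.05. Irf7, which drives interferon genes, was called with the preparation in the model (log2 fold change 1.08, limma adjusted p = 0.013).

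Among 4 tested receptors for other chemoattractants, S1pr1, which senses sphingosine 1-phosphate, was called higher, at 220.2 ± 9.95 units with DMSO against 464 ± 41.1 with Yoda1 (mean and SD, n = 3, log2 fold change 1.07, limma adjusted p = 0.0081). Of 28 signaling genes tested by limma 0 were called, with 5 higher and 6 lower at an unadjusted p under 0.05. At that level 11.2% of all genes were higher and 11.5% lower. Of 10 other genes of the chemokine system 0 were called, with 1 higher and 1 lower at that level.

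Of 9 stellate cell and fibroblast markers tested, 2 were called lower, Acta2 (log2 fold change -1.70, limma adjusted p = 0.016) and Col3a1 (log2 fold change -1.19, adjusted p = 0.0037). At an unadjusted p under 0.05, 7 were lower (11.5% of all genes) and 1, Pdgfra, was higher (11.2% of all genes), with a log2 fold change of 0.87 and a limma adjusted p of 0.055. The list, of which Col1a1 was the largest share, summed to 914190 to 1015100 units with DMSO and 452090 to 564480 with Yoda1. The 5 macrophage markers in the table summed to 669 to 812 units with DMSO and 644 to 1165 with Yoda1, and the 2 monocyte markers, mostly Plac8, to 1163 to 1603 and 1233 to 1577. Both lists overlapped between treatments. The dendritic cell list summed to 329 to 354 and 265 to 329 units, the NK cell list to 14.96 to 20.2 and 16.5 to 24.5 and the B cell list to 1.25 to 11.1 and 4.11 to 15.2. Trac, the T cell marker in the table, was called lower, at 66.1 to 81.9 and 26.5 to 38.6 units (log2 fold change -1.22, adjusted p = 0.028). The endothelial list, at 1696 to 2079 and 1064 to 1308 units, held Lyve1, called higher (log2 fold change 1.82), and Kdr, called lower (log2 fold change -1.07). Neutrophil markers in the table, mainly Lcn2 and Mmp9, summed to 829 to 2801 and 787 to 2547 units, platelet markers to 75.7 to 98.5 and 83.1 to 92.2, acinar markers to 277 to 1304 and 276 to 2383, and Ttr, the hepatocyte marker in the table, was at 62.8 to 109.7 and 74.1 to 121. No gene of these 4 lists was called by limma, and with the preparation in the model Mmp9 (log2 fold change -1.04, adjusted p = 0.014) and the platelet marker Gp1bb (log2 fold change -1.21, adjusted p = 0.025) were called lower. The part of other cells in the levels of Ccl5, Ccl6 and Cxcr6 was not tested.

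In both tissues 20 members were tested. Of these, 8 were positive for WT over TRPV4-KO and with Yoda1, 8 were positive in liver and negative with Yoda1, 3 were negative in liver and positive with Yoda1, and 1 was negative in both. For WT over GSK219 the numbers were 10, 7, 1 and 2 in the same order. The shares over all genes were not computed. On chromosome 9, where 10 of 14 members were tested in liver, 9 were positive for WT over TRPV4-KO with a median of 1.13. Ccr1, Ccr3 and Ccr2 lie in one cluster with log2 fold changes of 3.05, 3.02 and 1.30. Ccr9, Cxcr6 and Xcr1, which come just before Ccr1 in gene order, had 1.05, 0.21 and -0.19. On chromosome 11, 5 of 7 tested were positive, with Ccl6 at 2.65 beside Ccl9 at -0.55, neither of them called and their difference not tested. On chromosome 5 with Yoda1, the values were 1.99 for Cxcl5, 3.12 for Cxcl3, 0.36 for Cxcl1 and 0.90 for Cxcl2. Apart from these 4 lie Cxcl10, at -2.61, and Ccl24, at 1.38.

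**Figure D5:**
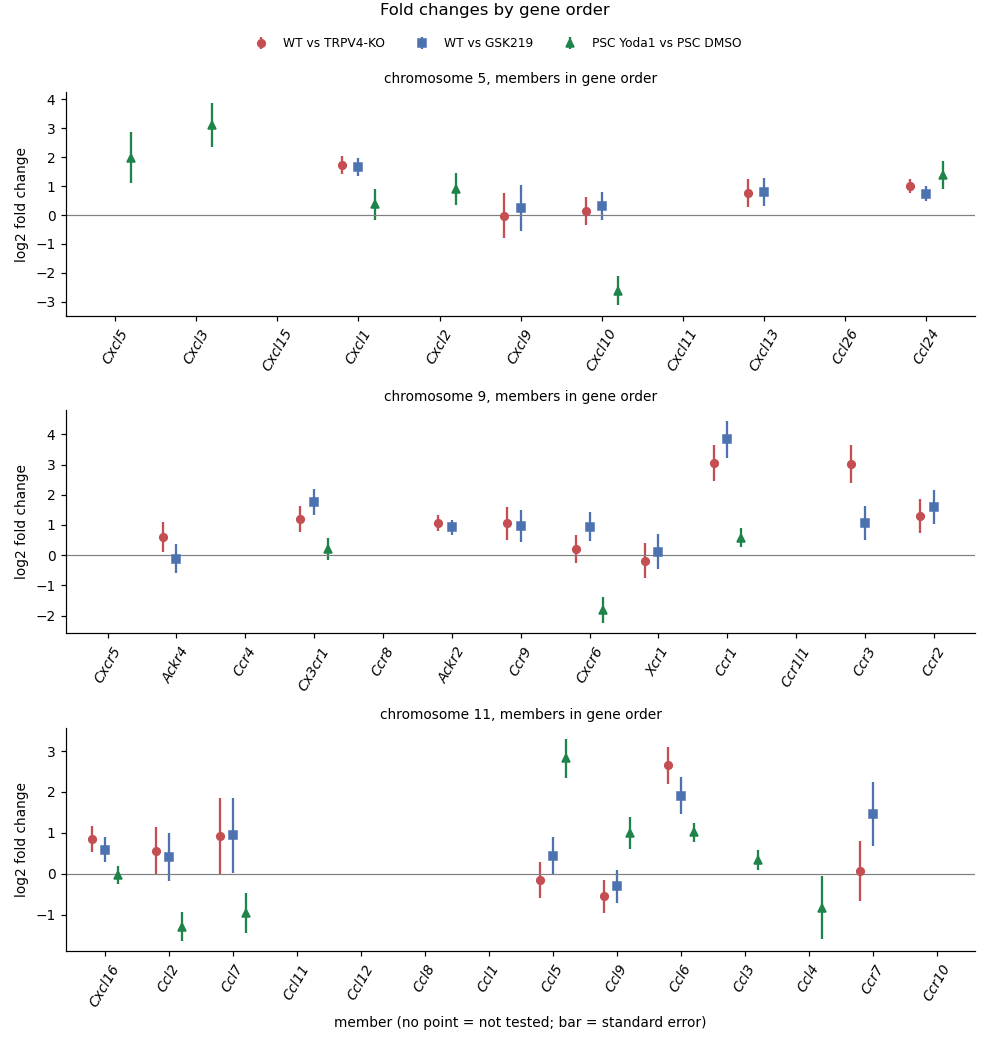
Log2 fold change (y axis, with bars of 1 standard error) of members on chromosomes 5, 9 and 11 in gene order, for WT over TRPV4-KO livers, WT over GSK219 livers and Yoda1 over DMSO in PSCs. A name with no point was not tested, and Ccl6 and Ccl9 have opposite signs in liver (2.65 and -0.55 for WT over TRPV4-KO) but not in PSCs (1.01 and 1.00).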

How the data were processed

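RNA-Seq had been done on 8 mouse livers and 6 libraries of cultured PSCs. Groups were taken from the sample labels. For livers the authors deposited raw counts per gene (Trim Galore and HISAT2 2.0.5 stand in the submitters' processing notes), with GRCm38 coordinates for 98.3% of the genes set against an annotation of that build. The PSC table, as the authors deposited it, holds a signal per gene, which is the read count over a size factor for the library, and 100% of 98886 values were whole multiples of what 1 read is worth (tolerance 0.001 reads), so reads were recovered. Columns of the authors' own fold changes and p-values were not used, nor were 7 liver columns that matched no sample here.

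Liver counts were tested over all genes with the quasi-likelihood test of edgeR 4.0.16 (R 4.3.3, TMM scaling, filterByExpr with a minimum count of 10, 3 groups in 1 fit, biological coefficient of variation 28.3%). PSC values were tested with limma 3.58.1 on log2(value + 1), with trended and robust spread, for genes of at least 10 in at least 3 libraries. P-values were adjusted by Benjamini-Hochberg over all genes tested, and calls had to pass both 0.05 in adjusted p and 1 in log2 fold change. Alternatives used DESeq2 1.42.0, other filters, pseudocounts, scalings and terms, and left out each library in turn. In a further fit, the preparation, which is a tag that 1 DMSO and 1 Yoda1 library share in their labels, was a replicate block. The 2 libraries with a shared tag deviated together, with correlations of 0.43, 0.26 and 0.53 between them. Only that further fit treated them as paired. The main limma test left the preparation out, so its calls, the adjusted p given first and the intervals for PSCs are unpaired. Scripts were tested on simulated data.

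The topic and the lists were chosen with earlier results of these data known, and within the topic every gene with such a symbol was taken. The values of 1 member are not reported here. Values are given for Ccl6, Cxcr2 and Cxcl10, every member called, the 5 with the largest change per direction among those whose groups do not overlap, their receptors or ligands, the 5 with the highest level per kilobase, and of each of the 13 marker and 5 pathway lists the genes called or up to 4 with the smallest p. Each liver came from a separate mouse, but 2 or 3 per group limit the precision, and p-values measure the spread between these samples only. Depth, at 15567031 to 17395299 counts per liver, leaves members with few counts imprecise.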

Additional observations from a re-analysis of the deposited data

How the results depend on the processing

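Of the named members' log2 fold changes, 150 kept their direction and their side of the threshold over the alternatives that kept all libraries, 36 passed it, 5 fell short of it and 1 reversed, and with 1 library left out 151 kept both, 8 passed, 20 fell short and 3 reversed. Among the members named by the rule, these reversals were those of Cxcl10 in the liver comparisons, where it was not called. Over all members tested, the sign turned with 1 library of the compared groups left out in 10 of 32 for WT over TRPV4-KO, 11 of 32 for WT over GSK219, 15 of 32 for TRPV4-KO over GSK219 and 7 of 28 in PSCs, and 0 of these were called; they include Ccl9 for WT over GSK219 and Cxcr6 for WT over TRPV4-KO, as well as Cxcl1 and Cxcl16 in PSCs. For WT over TRPV4-KO the log2 fold change of Cxcl10 was -0.014 with a sex term, and -0.50 to 0.64 with 1 liver left out. Against GSK219 it was -0.36 to 0.76 with 1 liver left out. Members called in WT against TRPV4-KO, all higher in WT, were 1 in the main test (0.152% of all genes). They came to 10 with DESeq2 (2.43%), 4 with no filter on low counts (0.37%) and 7 with a sex term (1.67%). There were 0 with only these 2 groups in the fit (0.0745%). With 1 TRPV4-KO or GSK219 liver left out there were 0 to 7, the highest without TRPV4-KO replicate 3 (3.83%). Against GSK219 there were 5 with DESeq2 (0.408% of all genes) and 1 with no filter (0.0259%), beside 0 in the main test (0%). In PSCs, members called higher and lower, 1 and 3 in the main test, came to 3 and 5 with DESeq2 and 1 and 2 with edgeR on the recovered reads, where Cxcl10 was lost at an adjusted p of 0.051. Without the trended and robust spread, an alternative chosen after seeing the data, 0 were higher and 2 lower, again without Cxcl10 (adjusted p = 0.075). With 1 library left out, 0 to 1 were higher (0 without DMSO replicate 2, Yoda1 replicate 1 or Yoda1 replicate 2), with 0.0534% to 0.756% of all genes, and 0 to 6 lower, with 0.113% to 1.12%, the highest in members and in genes without Yoda1 replicate 3. Cx3cl1 lost its call with a pseudocount of 10, at -0.99. The causes were not tested. Members with few counts, such as Cxcr2 and Ccl17, are limited by depth.

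With the replicate block, 4 members were higher and 5 lower in the paired PSC libraries, and no member called without it was lost. Liver numbers do not pair the mice, since correlations between livers of the same number ran from -0.48 to 0.58 and WT has no liver numbered 3. A replicate block there called 8 members higher in WT than in TRPV4-KO (2.32% of all genes) and 0 against GSK219.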
